A study of Mus musculus with 10 samples.

Results

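The liver response of Pml knockout mice to 6 h without food was measured on 5 of the 10 arrays of the study. Fasted knockout liver (3 arrays) was set against knockout liver of mice fed ad libitum (2 arrays), and every difference below is fasted minus fed. All mice were female, of the BALB/cByJ strain and 3 months old, and the knockout groups share the Pml deletion, so neither is a normal control. The other 5 arrays hold wild type liver, 2 from mice fed ad libitum and 3 from mice fasted for 6 h. Liver RNA, total RNA kept in RNAlater and extracted with a miRNeasy kit, was hybridised to Affymetrix Mouse Gene 2.1 ST arrays, which carry probes spread over a transcript's exons. A gene was taken when a probe set with 1 gene symbol lay above the median of its array on at least 2 of the 10 arrays, which 13942 of 22180 genes did. Levels are the log2 of the deposited linear intensity of a gene's probe set, and 1 unit on that scale is a 2-fold step. The text on food removal stands with the fed samples too, so feeding was taken from the sample names. The sources used here name neither the clock hour of collection nor the deleted sequence, and do not say whether each array is a separate animal, so a p-value measures only how these samples vary within their groups, which may be technical.

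PML is the protein that scaffolds PML nuclear bodies, nuclear structures that collect proteins modified by SUMO and touch the control of transcription, stress responses and cell death. In a fasting liver insulin falls and fatty acids arrive from adipose tissue: the nuclear receptor PPARα turns on fat oxidation and ketone body synthesis, while SREBP-1c and the lipogenic enzymes it drives are turned down. The liver also runs a circadian clock, in which BMAL1 and CLOCK drive the genes of their own repressors, and the load of newly made secreted proteins sets the level of the chaperones of the endoplasmic reticulum.

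The targeted gene was low on all knockout arrays. Pml had log2 levels of 6.91 and 6.41 in fed knockout replicates 1 and 2, and of 6.05, 6.35 and 6.14 in fasted knockout replicates 1, 2 and 3. The fasted arrays lay below the fed ones, and all 5 lay below the fed wild type mean of 8.29. The difference was not called (log2 -0.48, SE 0.20, limma adjusted p = 0.236). Array medians lay between 43.5 and 47.5 intensity units, and the lowest correlation between any 2 of the 10 arrays was 0.943. The median difference over all genes tested was 0.01 on the log2 scale, and 0.00, 0.01 and 0.00 in fasted replicates 1, 2 and 3.

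Fasting called 234 of 13942 genes in knockout liver, 1.68% (limma, Benjamini-Hochberg adjusted p under 0.05, n = 2 fed and 3 fasted). Of these 113 rose (0.811%) and 121 fell (0.868%), and 77 changed at least 2-fold, 30 of them higher and 47 lower. The fed and fasted arrays did not overlap for any of the 234, as was also true of 36.8% of all genes tested, 18.3% with every fasted array above and 18.5% with every fasted array below. Genes with predicted, numbered or similar symbols made up 27 of the calls and are not named. The wild type fast, in the same model, called 2990 genes (21.4%), 8.23% of all genes tested higher and 13.2% lower. At an unadjusted p under 0.05, limma gave 2680 of the 13942 genes for the fast in knockout. It gave 2798 for the difference between the genotypes (interaction). Counts of list members at an unadjusted p, given below, are to be read beside these numbers.

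The calls rested on few arrays. Leaving out 1 array at a time gave 24 genes without fed knockout replicate 1 and 1 gene, Bcl6, without fed knockout replicate 2. It gave 142, 62 and 10 genes without fasted knockout replicates 1, 2 and 3. In these omissions wild type arrays enter only through the shared estimate of spread. The gene filter and the choice of probe set, made on all 10 arrays, were not repeated. Leaving out 1 of the 3 fasted wild type arrays gave 137 (replicate 1), 42 (replicate 2) and 33 (replicate 3) genes. Each fed wild type array was left out in turn too, which leaves 1 array in that group. Of the 234 genes, 55 were called in none of these 10 omissions, 1 was called in all 10 and 5 in 9. None of the 234 took the opposite sign under any omission or other setting tried. For the omissions this was fixed beforehand, because the fed and fasted knockout arrays of all 234 do not overlap.

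The calls that held under the most omissions included those of a transcriptional repressor, an inflammatory cytokine, a growth inhibitor and a drug-metabolising enzyme. Bcl6 encodes a zinc finger repressor that opposes STAT5 and PPARα at their target genes in liver. Its log2 levels were 8.73 and 8.25 in fed replicates 1 and 2, and 6.84, 6.90 and 6.94 in fasted replicates 1, 2 and 3. The 3 fasted arrays lay close together and well below both fed ones. Bcl6 fell by 1.60 on the log2 scale (SE 0.16, adjusted p = 0.00797), the only call kept in all 10 omissions, with an adjusted p of 0.0393 when the 5 knockout arrays were fitted alone. In wild type Bcl6 fell by 0.98, and the difference between the genotypes was not called (interaction adjusted p = 0.169).

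Il1b, the gene of the cytokine interleukin 1β, had log2 levels of 3.93 and 4.29 in the fed arrays and of 6.39, 6.47 and 6.64 in the fasted ones. Both fed values lay below the array median, so the rise is given as a bound: Il1b rose at least 1.99-fold (adjusted p = 0.00797). In wild type too Il1b was above that median on the fasted arrays only. It thus passed the filter only through the groups where it was high. Btg2, an antiproliferative gene of the immediate early and p53 lists, went from 6.29 and 6.27 to 7.43, 7.55 and 7.75. It rose by 1.30 (SE 0.13, adjusted p = 0.00797), against 1.31 in wild type. Cyp2b10, a cytochrome P450 induced through the nuclear receptor CAR, stood at 10.44 and 10.39 fed and at 11.67, 11.77 and 11.62 fasted. The fasted arrays lay within a narrow band above the fed ones, and Cyp2b10 rose by 1.27 (SE 0.11, adjusted p = 0.0066). The rise was smaller than the wild type rise of 2.55 (interaction -1.28, adjusted p = 0.0188). Each of Il1b, Btg2 and Cyp2b10 was called in 9 of 10 omissions and lost its call without fed knockout replicate 2 (adjusted p = 0.0753, 0.087 and 0.0753).

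Also called in 9 of 10 omissions were Atp8b1 and Gp9, which were picked for mention after their values had been seen. Atp8b1, a phospholipid flippase of the bile canaliculus membrane, was 9.72 and 9.84 in fed and 8.81, 8.79 and 8.84 in fasted knockout liver. It fell by 0.97 (SE 0.10, adjusted p = 0.00797) and by 1.06 in wild type. Gp9, a platelet glycoprotein gene, was 6.35 and 6.53 in fed liver and below the array median on all 3 fasted arrays, a fall of at least 1.91-fold (adjusted p = 0.0101). Both calls were lost without fed knockout replicate 2. With the 5 knockout arrays fitted alone, limma called 16 genes in place of 234. The call was then kept for Il1b (adjusted p = 0.0108), Cyp2b10 (0.0298) and Btg2 (0.0393), and among genes described below for Sdf2l1 (0.0108), Hyou1 (0.0207), Manf and Slc39a10 (0.0393 each), Mt1 (0.0485) and Ptgds (0.0498). It was lost for Atp8b1 and Gp9 (adjusted p = 0.0601 each), Cidec (0.074), Jun (0.0736), Fasn (0.0774) and Gadd45b (0.0932), and for every other called gene named here except Bcl6.

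Metallothioneins, small zinc and copper binding proteins that glucocorticoids and inflammation induce, reached a high level on every fasted array. Mt1 was at 8.88 and 7.82 in the fed arrays and at 11.04, 10.87 and 11.31 in the fasted ones. The fed arrays were further apart from each other than the fasted arrays, and Mt1 rose by 2.72 (SE 0.32, adjusted p = 0.0145, called in 8 of 10 omissions). Mt2 ran from 11.03 and 8.95 to 12.07, 11.85 and 12.14, with no overlap and no call (2.03, adjusted p = 0.0815). The zinc importer gene Slc39a10 was at 6.29 and 6.35 fed and below the array median on every fasted array, and fell at least 1.76-fold (adjusted p = 0.0278). Of the 6 metallothionein and zinc genes tested, 1 rose and 1 fell (0.811% and 0.868% of all genes).

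**Figure D1:**
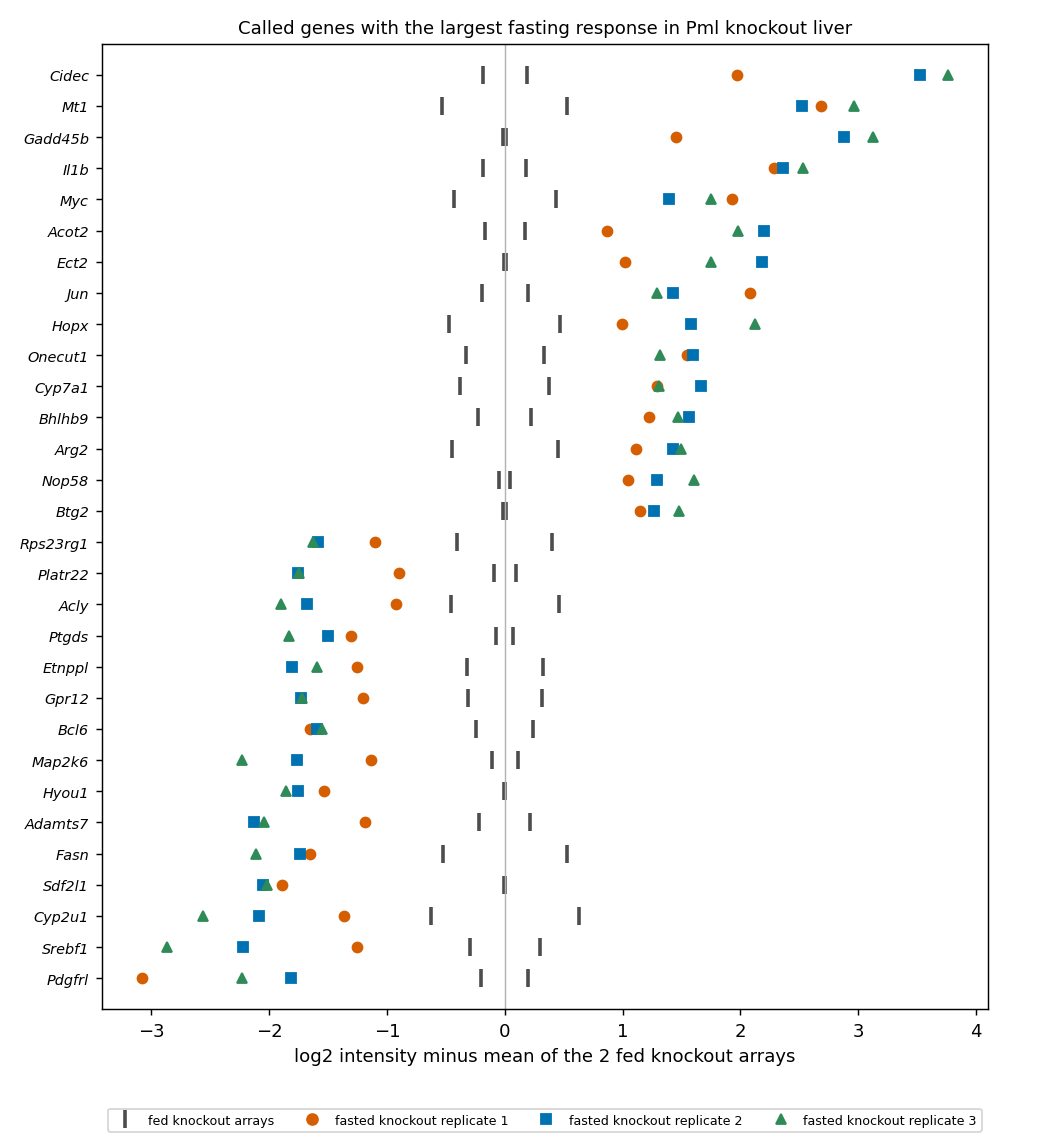
Each row is a called gene, and the horizontal axis gives log2 intensity minus the mean of the fed knockout arrays, for the 2 fed arrays (bars) and fasted replicates 1, 2 and 3 (symbols); the 15 genes with the largest rise and the 15 with the largest fall are drawn. All fasted symbols lie outside the fed bars, and replicate 1 lies nearer to 0 than the other fasted arrays for Cidec, Gadd45b, Acot2 and Srebf1.

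Of 30 tested genes of the chaperones of the endoplasmic reticulum and the unfolded protein response, 7 fell (background for lower calls 0.868%) and none rose. Every fasted array lay below both fed arrays for 21 genes (18.5% of all genes) and above them for 1, and the list median was -0.43 on the log2 scale, against 0.01 for all genes. The median was -0.40, -0.49 and -0.45 in fasted replicates 1, 2 and 3. In wild type the list median was -0.37, and none of the 30 genes differed between the genotypes by the interaction test (limma, 8 at an unadjusted p under 0.05).

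Promoters of 3 of these genes are shown because each holds the motif to which ATF6 and its partner NF-Y are known to bind, the endoplasmic reticulum stress element. The windows run from 250 bases before to 50 bases after the annotated start (RefSeq, GRCm38.p6), are written 5′ to 3′ along the gene's own strand, and carry the fixed letters of the motif in capitals. The motif was searched on both strands as CCAAT, a gap of 9 bases of any kind, and CCACG, so that on the other strand it begins with CGTGG and ends with ATTGG. The Calr window is chr8:84846882-84847181 on the minus strand, the Hspa5 window chr2:34771840-34772139 on the plus strand, and the Hsp90b1 window, which holds 2 matches, chr10:86705395-86705694 on the minus strand.
Calr: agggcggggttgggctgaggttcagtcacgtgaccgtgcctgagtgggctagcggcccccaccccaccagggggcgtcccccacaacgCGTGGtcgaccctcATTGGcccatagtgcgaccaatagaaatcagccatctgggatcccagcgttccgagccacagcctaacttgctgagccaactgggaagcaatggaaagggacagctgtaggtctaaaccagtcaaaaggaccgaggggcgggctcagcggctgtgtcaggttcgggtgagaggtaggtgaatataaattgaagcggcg
Hspa5: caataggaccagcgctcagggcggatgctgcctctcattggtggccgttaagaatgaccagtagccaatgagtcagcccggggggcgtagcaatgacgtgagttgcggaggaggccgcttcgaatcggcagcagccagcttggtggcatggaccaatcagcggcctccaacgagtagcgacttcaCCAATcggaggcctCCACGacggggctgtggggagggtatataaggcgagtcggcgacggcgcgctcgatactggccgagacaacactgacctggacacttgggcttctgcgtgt
Hsp90b1: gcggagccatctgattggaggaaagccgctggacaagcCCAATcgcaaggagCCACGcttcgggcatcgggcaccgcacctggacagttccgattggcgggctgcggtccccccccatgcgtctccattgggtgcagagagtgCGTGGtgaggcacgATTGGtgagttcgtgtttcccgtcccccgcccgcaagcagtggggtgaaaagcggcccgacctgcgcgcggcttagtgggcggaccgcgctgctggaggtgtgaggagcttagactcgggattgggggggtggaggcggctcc

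The motif stood in 39 of 32851 RefSeq promoter windows of 300 bases (0.119%). A window was found for 25 of the 30 genes, and 9 of those held it: Calr, Canx, Creld2, Derl3, Dnajc3, Hsp90b1, Hspa5, Pdia6 and Syvn1. The share over all is of windows, while the list count is of genes with a match in any window, so the units differ. A match of letters is a description of the window and does not show that a factor was bound there.

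Among genes that act beside the main chaperones, Sdf2l1, a subunit of a large chaperone complex, was at 10.08 and 10.09 in the fed arrays and at 8.19, 8.03 and 8.07 in the fasted ones. The groups were far apart and the arrays of each were close, and Sdf2l1 fell by 1.99 (SE 0.26, adjusted p = 0.0222). Hyou1, a nucleotide exchange factor of the Hsp70 family in the endoplasmic reticulum, went from 10.34 and 10.33 to 8.80, 8.58 and 8.48 and fell by 1.72 (SE 0.28, adjusted p = 0.0323). Manf, a secreted protein of the same compartment, fell by 1.36 (SE 0.24, adjusted p = 0.0347). The Hsp40 co-chaperone gene Dnajb11 fell by 0.95, from 9.30 and 9.37 to 8.50, 8.19 and 8.47 (adjusted p = 0.0483).

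Of the folding enzymes for glycoproteins, Calr (calreticulin) fell by 0.61, with 11.80 and 11.89 fed against 11.23, 11.18 and 11.29 fasted (SE 0.10, adjusted p = 0.0323). Its partner Pdia3, a disulfide isomerase, fell by 0.52, from 11.34 and 11.41 to 10.83, 10.87 and 10.88 (adjusted p = 0.0449). Ern1, the gene of the stress sensor IRE1α, fell by 0.68 (SE 0.12, adjusted p = 0.0345). The spread within either group was small for these genes, and no fasted array reached a fed one.

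The best known members of the list did not pass. Hspa5, the chaperone BiP, was at 11.03 and 10.92 fed and at 10.21, 10.13 and 10.35 fasted (-0.75, adjusted p = 0.0794). Hsp90b1, the chaperone GRP94, was at 11.53 and 11.61 against 11.16, 11.28 and 11.23 (-0.34, adjusted p = 0.132). Creld2 was at 10.26 and 10.01 against 8.66, 8.69 and 8.77 (-1.42, adjusted p = 0.0819). These 3 genes, chosen here after their values were seen, had no overlap between fed and fasted arrays. Dnajb9, a co-chaperone of BiP chosen in the same way, was the only member above the fed arrays on every fasted array, with 9.82 and 9.65 fed and 10.04, 10.28 and 10.13 fasted (0.42). Of the 7 called genes, Sdf2l1 kept its call in 7 of 10 omissions, Hyou1 in 5, Calr in 4, Manf in 3, Ern1 in 2, Dnajb11 in 1 and Pdia3 in 0. Without fed knockout replicate 2 none of them was called (adjusted p = 0.143 to 0.269).

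**Figure D2:**
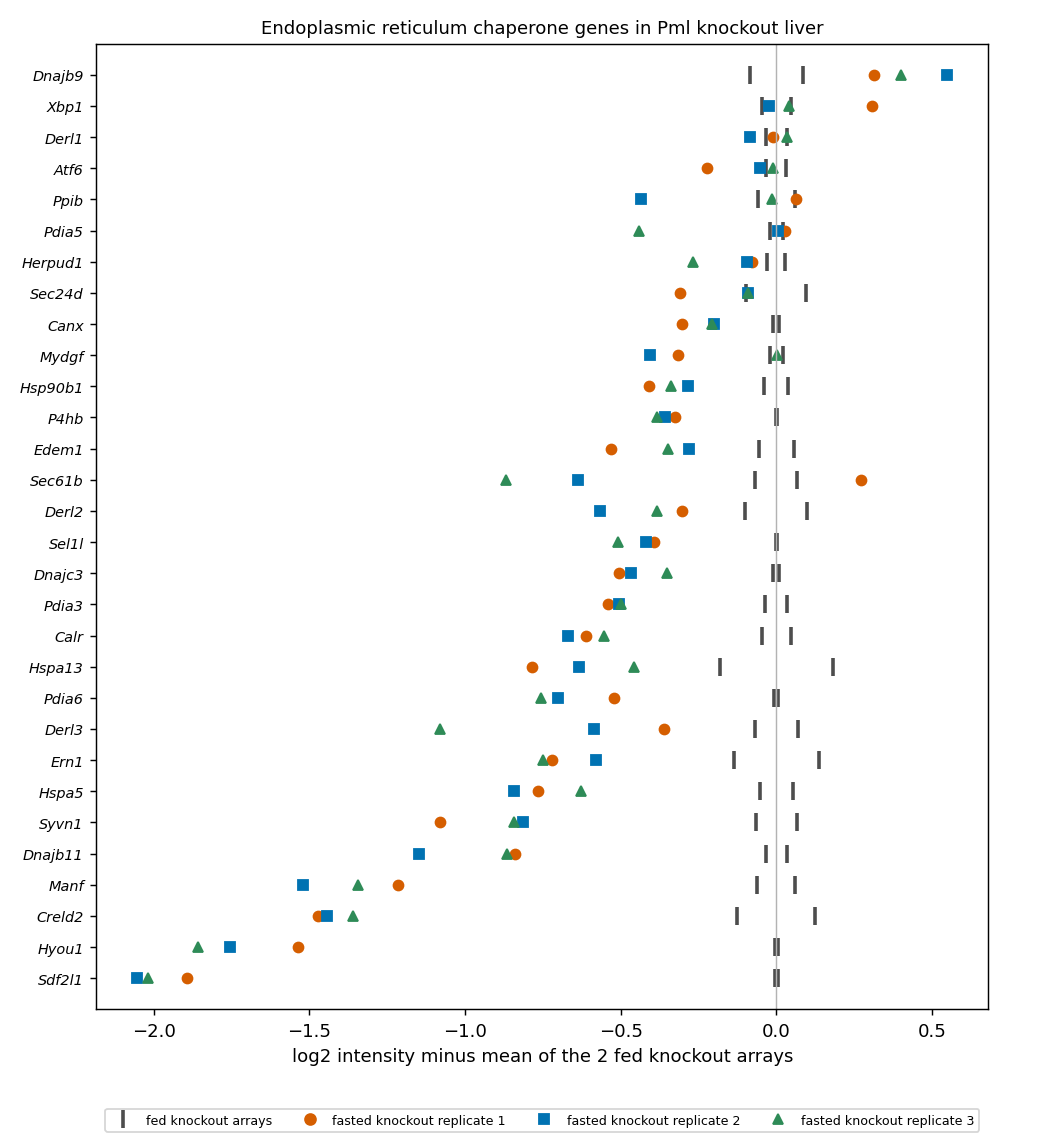
Rows are the 30 tested genes of the endoplasmic reticulum list, and the horizontal axis gives log2 intensity minus the fed knockout mean for the 2 fed arrays (bars) and the 3 fasted arrays (symbols). The 3 fasted symbols lie close together for most genes, left of the fed bars in 21 rows and right of them in the row of Dnajb9 only.

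Of 27 tested genes of lipogenesis and glycolysis, 4 fell and none rose, 13 lay below the fed arrays on every fasted array and 0 above. Over all genes tested 0.868% fell and 18.5% lay below in this way. The list median was -0.44 in knockout and -0.59 in wild type. Srebf1, the gene of the lipogenic transcription factor SREBP-1, was at 9.63 and 10.23 in fed and at 8.68, 7.71 and 7.07 in fasted replicates 1, 2 and 3. The fasted arrays spread over more than 1 unit, with replicate 1 highest, and Srebf1 fell by 2.11 (SE 0.39, adjusted p = 0.0415). Fasn, the fatty acid synthase, was at 10.72 and 11.78 fed and at 9.60, 9.51 and 9.14 fasted, and fell by 1.83 (SE 0.31, adjusted p = 0.0323).

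Acly, which makes the acetyl-CoA that the pathway uses, fell by 1.50, with 9.99 and 10.90 fed and 9.52, 8.76 and 8.54 fasted (SE 0.31, adjusted p = 0.0483). Acaca, which carboxylates that acetyl-CoA, fell by 1.21, from 8.79 and 9.34 to 8.19, 7.88 and 7.49 (SE 0.23, adjusted p = 0.0437). Fed replicate 1 was below fed replicate 2 for all 4 of these genes. Fasn kept its call in 5 of 10 omissions, Srebf1 in 3, Acly and Acaca in 1 each. The difference between the genotypes was not called for any of the 4 (interaction adjusted p = 0.366 to 0.982).

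Cholesterol synthesis and uptake, which SREBP-2 drives, had 0 of 20 genes called by limma, with 12 lower and 1 higher at an unadjusted p under 0.05. Every fasted array lay below the fed arrays for 14 of the 20 (18.5% of all genes), and the list median was -0.65, with -0.68, -0.81 and -0.50 in replicates 1, 2 and 3. Insig1, a sterol-regulated brake on SREBP processing, was at 10.97 and 11.62 fed and at 10.21, 10.21 and 10.05 fasted (-1.14, adjusted p = 0.0507). Lss, the lanosterol synthase, was at 8.20 and 8.84 against 7.58, 7.48 and 7.44 (-1.02, adjusted p = 0.0668). The fasted arrays were close to each other for Insig1 and Lss and stood apart from both fed arrays. In wild type the list median was -1.70, and 5 of the 20 genes had a smaller fall in knockout by the interaction test (background for such higher calls 1.32%). Among those 5, Mvk, the mevalonate kinase, was at 7.25 and 7.30 fed and 6.78, 6.26 and 6.65 fasted in knockout (-0.71, adjusted p = 0.0706), against -2.92 in wild type (interaction 2.21, adjusted p = 0.017).

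Immediate early genes, which cells turn on within minutes of a stimulus, had 5 of 16 members called higher (background for higher calls 0.811%) and none lower. The 5 were Gadd45b, Myc, Jun, Btg2 and Dusp1. The fasted arrays lay above the fed ones for 9 of the 16 (18.3% of all genes) and below for 0. The list median was 0.62, with 0.68, 0.47 and 0.69 in fasted replicates 1, 2 and 3, and 1.25 in wild type.

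Gadd45b, a stress-induced regulator of growth arrest and MAP kinase signalling, was at 6.31 and 6.28 fed and at 7.75, 9.18 and 9.42 fasted. Replicate 1 was the lowest fasted array and still above both fed arrays, and Gadd45b rose by 2.49 (SE 0.42, adjusted p = 0.0323, called in 4 of 10 omissions). Jun, a subunit of the AP-1 factor, was at 6.23 and 6.62 against 8.51, 7.85 and 7.71, with replicate 1 the highest. It rose by 1.60 (SE 0.24, adjusted p = 0.0323), less than the 3.30 of wild type (interaction -1.70, adjusted p = 0.0426).

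Myc, the growth-promoting transcription factor, was at 5.18 and 6.05 fed, with 1 of these 2 values above the array median, and at 7.54, 7.01 and 7.36 fasted. It rose by 1.69 (SE 0.28, adjusted p = 0.0323, called in 3 of 10 omissions). Dusp1, a phosphatase that switches off MAP kinases, was at 8.85 and 8.79 against 9.93, 9.37 and 9.62 and rose by 0.82 (adjusted p = 0.0483, called in 0 of 10 omissions). Gadd45g, a relative of Gadd45b, was at 5.09 and 4.09 against 6.84, 7.34 and 9.08. Both fed values lay below the array median, so the difference is given as a bound, at least 4.74-fold higher without a call (adjusted p = 0.06). Gadd45g was picked after its values were seen, and its fasted arrays differ by more than 2 units although none reaches a fed array.

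Of 19 tested genes of interleukin 1 and NF-κB signalling, Il1b alone was called (background for higher calls 0.811%). The fasted arrays lay above the fed ones for 6 and below for 1 (18.3% and 18.5% of all genes), and the list median was 0.11. Cd14, a co-receptor for bacterial lipopolysaccharide, was below the array median on both fed arrays and at 6.26, 6.54 and 6.79 on the fasted ones, at least 2.03-fold higher without a call (adjusted p = 0.0509). The adaptor gene Myd88 was at 8.05 and 8.04 against 8.50, 8.82 and 8.67 (0.62, adjusted p = 0.0619).

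Acute phase genes, which the liver makes in response to interleukins, had 0 of 24 called by limma (4 higher and 0 lower at an unadjusted p under 0.05; list median 0.09). Lcn2, the siderophore-binding lipocalin 2, was at 9.0 and 8.09 fed and 10.54, 9.53 and 10.42 fasted (1.62, adjusted p = 0.0748).

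Macrophage markers are given beside these inflammatory genes. None of 12 was called by limma (3 higher and 0 lower at an unadjusted p under 0.05), and 5 lay above the fed arrays on every fasted array, against 18.3% of all genes. Those above the fed mean numbered 11, 8 and 7 of the 12 on fasted replicates 1, 2 and 3. Their summed intensity ran from 5227 to 5509 in fed and from 5780 to 6764 in fasted knockout liver, ranges that do not overlap, and their median difference was 0.13. The fed wild type arrays alone ran from 5016 to 6329, across the gap between those ranges, and the fasted wild type arrays from 4788 to 5057. In bulk tissue more cells of a type and more RNA per cell cannot be told apart, and the part of these cells in the changes above was not tested. Neutrophil and red blood cell markers had no gene among those tested. A gene needed a probe set with 1 symbol that lay above the array median, and which of these rules removed each marker was not examined.

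Summed markers of hepatocytes ran from 48691 to 51146 intensity units fed and from 47310 to 51007 fasted. Those of stellate cells ran from 6248 to 7044 and from 6703 to 7118, and those of sinusoidal endothelial cells from 8594 to 8850 and from 7801 to 8975. The fed and fasted ranges of these 3 types overlap. Of 12 endothelial markers 0 lay above and 5 below the fed arrays on every fasted array (18.3% and 18.5% of all genes). None of the 12 was called by limma (0 higher and 3 lower at an unadjusted p under 0.05). The summed cholangiocyte markers, 6 genes, ran from 356 to 362 fed and from 363 to 397 fasted, without overlap. In fed wild type liver those cholangiocyte sums ran from 339 to 386, across the narrow gap between the knockout ranges. The part of either cell type in the results was not tested. The hepatocyte markers, the defining genes of the labelled tissue, were bright on all 5 arrays.

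Of 26 tested genes of lipid droplets and fasting fat handling, 3 rose, Cidec, Acot2 and Fitm2 (background for higher calls 0.811%), and none fell. Every fasted array lay above the fed ones for 12 and below for 2 (18.3% and 18.5% of all genes), and the list median was 0.17, 0.48 and 0.62 in replicates 1, 2 and 3, 0.41 over all. The range over the 3 fasted arrays reached 1 log2 unit for 6 of the 26, and in all 6 replicate 1 was the array that stood apart. Over all genes tested such a range was found for 423 (3.03%), with replicate 1 apart in 133 of them.

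Cidec, a lipid droplet protein that fuses droplets, had log2 levels of 5.93 and 5.56 in the fed arrays and of 7.71, 9.27 and 9.50 in fasted replicates 1, 2 and 3. Replicate 1 lay between the fed arrays and the other fasted ones. Cidec rose by 3.08 (SE 0.44, adjusted p = 0.0278, called in 6 of 10 omissions), the largest rise among called genes with a nameable symbol. Acot2, which splits fatty acyl-CoA in mitochondria, was at 9.73 and 9.39 against 10.43, 11.76 and 11.54 and rose by 1.69 (SE 0.35, adjusted p = 0.0483). Its rise was smaller than the 4.20 of wild type (interaction -2.52, adjusted p = 0.0426), and the knockout call was kept in 1 of 10 omissions. Fitm2, needed to form lipid droplets, rose by 0.97, from 9.25 and 8.69 to 9.64, 10.08 and 10.10 (adjusted p = 0.0483).

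Several PPARα targets stayed at the fed level on replicate 1 and were higher on the other fasted arrays. They were chosen for this display after their values were seen, and none was called. Pdk4, the kinase that spares glucose by blocking pyruvate dehydrogenase, was at 7.89 and 7.90 fed and at 7.57, 9.87 and 10.63 in fasted replicates 1, 2 and 3 (1.46, SE 0.68, adjusted p = 0.28). Acot1, a cytosolic acyl-CoA thioesterase, was at 7.72 and 6.99 against 7.65, 9.64 and 9.73 (1.65, adjusted p = 0.16). Plin5, a lipid droplet coat protein of oxidative tissues, was at 8.51 and 7.89 against 7.77, 9.08 and 9.82. On replicate 1 each of these 3 genes lay at or below the higher fed array. Ehhadh, a peroxisomal oxidation enzyme, was at 10.73 and 10.60 against 10.49, 11.39 and 11.73, and Angptl4, a secreted lipase inhibitor, at 10.52 and 10.42 against 10.20, 10.64 and 10.83. Fgf21, the fasting hormone of liver, was at 5.90 and 6.00 against 6.31, 7.03 and 7.98, lowest on replicate 1 yet without overlap (1.16, adjusted p = 0.184). Without fasted knockout replicate 1 Cidec had a log2 difference of 3.64 (adjusted p = 0.000719) and Acot2 of 2.09 (adjusted p = 0.014).

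**Figure D3:**
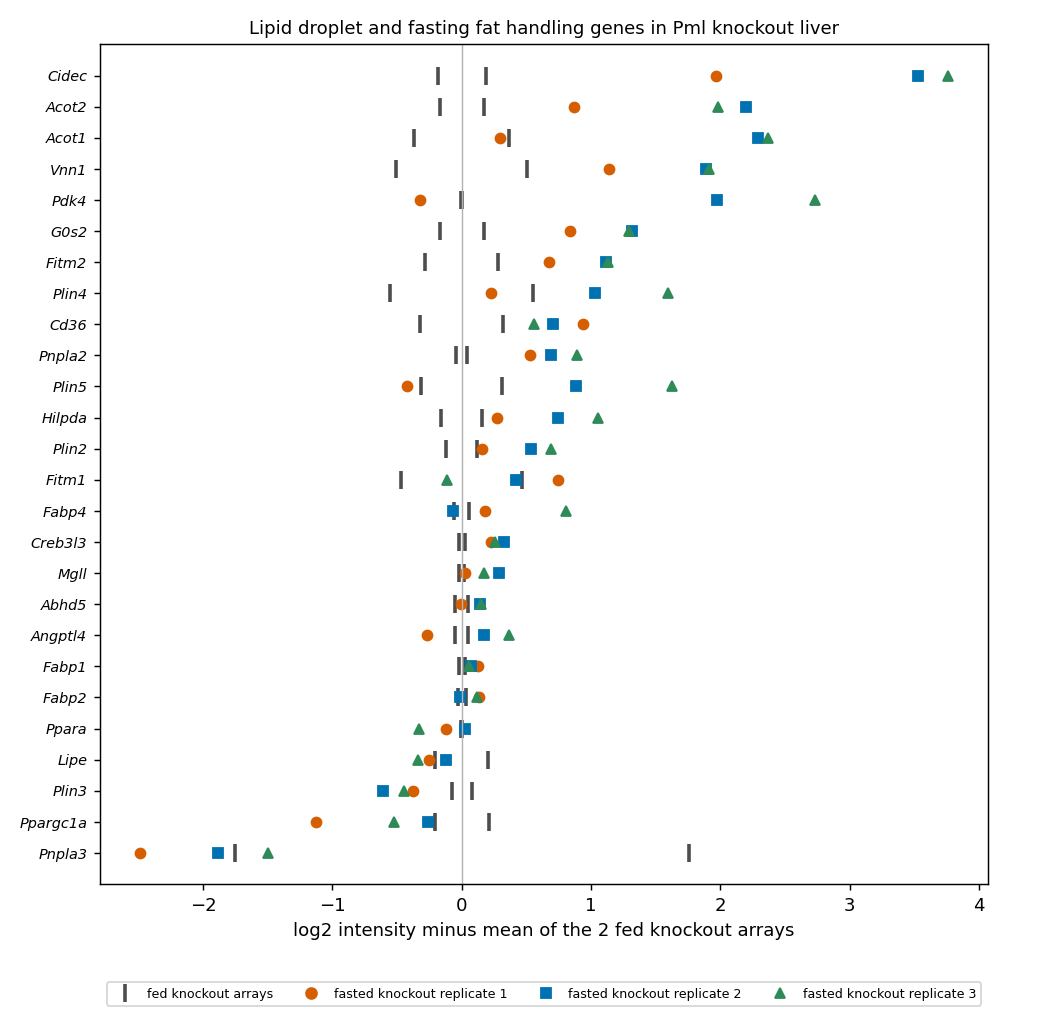
Rows are the 26 tested genes of lipid droplets and fasting fat handling, and the horizontal axis gives log2 intensity minus the fed knockout mean for the 2 fed arrays (bars) and fasted replicates 1, 2 and 3 (symbols). Replicate 1 lies near the fed arrays for Pdk4, Acot1 and Plin5, where replicates 2 and 3 lie to the right.

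Peroxisomal and omega oxidation had 1 of 18 genes called, higher (background 0.811%), with 8 above the fed arrays on every fasted array (18.3% of all genes) and 0 below, and a list median of 0.31 against 0.79 in wild type. The called gene was Pex11a, a peroxisome proliferation factor, at 10.28 and 9.80 fed and 10.68, 11.01 and 11.01 fasted. It rose by 0.86 (SE 0.16, adjusted p = 0.0436), less than the 2.26 of wild type (interaction -1.40, adjusted p = 0.0278). In mitochondrial fatty acid oxidation 0 of 20 genes were called by limma (7 higher and 0 lower at an unadjusted p under 0.05), 10 lay above the fed arrays and 1 below, with the same shares of all genes (18.3% and 18.5%). The list median was 0.17, with 0.08, 0.20 and 0.24 by array, against 0.48 in wild type. Hadhb, a subunit of the trifunctional oxidation enzyme, was at 7.95 and 7.93 against 8.33, 8.44 and 8.75 (0.56, adjusted p = 0.0783). Ketone body synthesis had 0 of 5 genes called by limma (1 at an unadjusted p under 0.05) and a median of 0.10.

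Of 19 glucocorticoid targets 3 rose, Mt1, Gadd45b and Dusp1 (background for higher calls 0.811%), and none fell. Of the 19, 9 lay above the fed arrays on every fasted array (18.3% of all genes) and 0 below. The list median was 0.05, 0.42 and 0.81 in replicates 1, 2 and 3, 0.59 over the fit, and 1.68 in wild type. Fkbp5, a cochaperone of the glucocorticoid receptor and one of its standard target genes, was at 7.52 and 6.76 fed and at 7.79, 8.18 and 8.28 fasted (0.95, adjusted p = 0.07), against 2.59 in wild type (interaction -1.64, adjusted p = 0.0426).

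Of 20 insulin and FoxO targets none was called by limma (2 higher and 1 lower at an unadjusted p under 0.05). Igfbp1, a secreted binding protein that insulin represses, was at 7.95 and 7.98 fed and at 9.43, 8.84 and 10.23 fasted (1.53, adjusted p = 0.0698). All fasted arrays were higher, and the difference from the wild type response of 4.78 was called (interaction -3.25, adjusted p = 0.0278).

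Gluconeogenesis and amino acid catabolism had 0 of 26 genes called by limma (0 higher and 4 lower at an unadjusted p under 0.05), 1 above and 6 below the fed arrays (18.3% and 18.5% of all genes), and a median of -0.06. Pck1 and G6pc, enzymes of glucose output, had differences of 0.01 and 0.09. Ass1, a urea cycle enzyme, was at 9.0 and 8.60 fed and at 6.54, 7.65 and 7.90 fasted, lowest on replicate 1 (-1.44, adjusted p = 0.0794).

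Growth hormone signalling and sex-biased genes had 1 of 14 called lower, Bcl6 (background for lower calls 0.868%). Socs2 and Cish, feedback inhibitors that STAT5 induces and BCL6 is known to repress, had no overlap and no call. Socs2 was at 7.65 and 8.13 fed and 9.31, 9.83 and 10.27 fasted (1.92, adjusted p = 0.07). Cish was below the array median on both fed arrays and at 7.16, 6.05 and 6.47 fasted, at least 2.07-fold higher (adjusted p = 0.0952). Every fasted array was above every fed array for both inhibitors and below for Bcl6, as for 18.3% and 18.5% of all genes. A link between Bcl6 and these inhibitors was not tested.

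Bile acid synthesis and transport had 1 gene higher and 1 lower of 18 (0.811% and 0.868% of all genes). Cyp7a1, the rate-limiting enzyme of bile acid synthesis from cholesterol, was at 10.50 and 9.75 in fed and at 11.41, 11.79 and 11.43 in fasted knockout liver. All fasted arrays were above the fed ones, and Cyp7a1 rose by 1.42 (SE 0.28, adjusted p = 0.0449, called in 1 of 10 omissions). In wild type the fast lowered Cyp7a1 by a log2 difference of -2.15, from a fed mean of 11.56 to a fasted mean of 9.41. The interaction was called (3.57, adjusted p = 0.017). The fed knockout mean, 10.13, was thus below the fed wild type mean, and the fasted knockout mean was 11.55. Fgfr4, the liver receptor through which intestinal FGF15 represses Cyp7a1, was at 8.77 and 9.07 against 8.24, 8.40 and 8.37 and fell by 0.58 (SE 0.11, adjusted p = 0.044), with no omission that kept the call. Klb, the co-receptor of Fgfr4, was at 10.02 and 10.17 against 9.53, 9.84 and 9.71 (-0.40, adjusted p = 0.124).

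Other genes with large changes belong to none of the lists. Pdgfrl, a gene related to the platelet-derived growth factor receptor, was at 7.38 and 7.78 fed and at 4.50, 5.76 and 5.35 fasted, with 1 of these 3 values above the array median. It fell by 2.37 (SE 0.35, adjusted p = 0.0296, called in 7 of 10 omissions), while in wild type it was 1.20 higher after fasting (interaction -3.58, adjusted p = 0.0264). Onecut1, the hepatocyte transcription factor HNF6, was at 8.05 and 8.72 against 9.93, 9.98 and 9.70, and rose by 1.49 (SE 0.21, adjusted p = 0.0278, called in 6 of 10 omissions). The wild type difference of Onecut1 was 0.33 and not called, and the interaction was not called either (1.16, adjusted p = 0.0778). Ptgds, a prostaglandin D synthase, was at 8.74 and 8.59 against 7.36, 7.17 and 6.84 and fell by 1.54 (SE 0.26, adjusted p = 0.0323).

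Smaller sets of values complete the genes with the largest changes. Higher were the cytokinesis factor Ect2 (1.65, adjusted p = 0.0323), Hopx (1.57, adjusted p = 0.0483), Bhlhb9 (1.42, adjusted p = 0.0294) and Nop58, a nucleolar protein of ribosome assembly (1.31, adjusted p = 0.0327). Arg2, the mitochondrial arginase, rose at least 1.28-fold from fed levels below the array median (adjusted p = 0.044). Lower were Cyp2u1 (-2.01, adjusted p = 0.0483), Adamts7 (-1.79, adjusted p = 0.0323), the p38 MAP kinase activator Map2k6 (-1.71, adjusted p = 0.044) and Etnppl, an ethanolamine phosphate lyase (-1.55, adjusted p = 0.044). Platr22 (-1.47, adjusted p = 0.0421) and Rps23rg1 (-1.44, adjusted p = 0.0323) were lower too, and Gpr12 fell at least 1.93-fold to below the array median (adjusted p = 0.0483). Some levels of these genes lay below the array median: that of 1 fed array for Ect2 and for Bhlhb9, of 1 fasted array for Cyp2u1, and of 2 fasted arrays for Adamts7 and for Platr22. In both genotypes Arg2 was above the array median on fasted arrays only, and Gpr12 on fed arrays only. Arg2 and Gpr12 thus passed the filter only through the groups where they were high.

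Genes of the circadian clock split the fasted knockout arrays. None of 21 tested clock genes was called by limma (0 higher and 2 lower at an unadjusted p under 0.05). The range over the 3 fasted arrays was at least 1 log2 unit for 16 of the 21, and in all 16 replicate 3 was the array that stood apart, whereas such a range was found for 423 of all 13942 genes (3.03%). The median range of the clock genes was 1.34, against 0.30 for all genes. Their median difference from the fed mean was -0.16, -0.15 and -0.87 in replicates 1, 2 and 3.

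Promoters of 3 clock genes are shown since they hold motifs through which the clock is known to work. The E-box CACGTG is bound by BMAL1 with CLOCK, and the D-box TTATGTAA by DBP, TEF and NFIL3. Both were searched on both strands of the same 300 base RefSeq windows (GRCm38.p6), and capitals mark the matches. The E-box reads the same on either strand. The Ciart window is chr3:95882179-95882478 on the minus strand with 3 E-boxes, the Tef window chr15:81802423-81802722 on the plus strand with 1, and the Per3 window chr4:151044616-151044915 on the minus strand with 2 D-boxes.
Ciart: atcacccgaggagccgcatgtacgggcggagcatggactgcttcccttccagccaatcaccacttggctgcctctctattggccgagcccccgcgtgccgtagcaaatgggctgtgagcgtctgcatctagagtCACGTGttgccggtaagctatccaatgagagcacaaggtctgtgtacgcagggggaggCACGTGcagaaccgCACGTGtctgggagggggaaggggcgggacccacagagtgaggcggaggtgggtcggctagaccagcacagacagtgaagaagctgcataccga
Tef: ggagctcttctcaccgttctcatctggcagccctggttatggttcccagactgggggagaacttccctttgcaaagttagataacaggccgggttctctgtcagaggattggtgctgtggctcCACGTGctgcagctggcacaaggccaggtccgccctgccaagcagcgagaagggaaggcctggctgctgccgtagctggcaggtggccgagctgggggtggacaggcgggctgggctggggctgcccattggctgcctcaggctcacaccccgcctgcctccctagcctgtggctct
Per3: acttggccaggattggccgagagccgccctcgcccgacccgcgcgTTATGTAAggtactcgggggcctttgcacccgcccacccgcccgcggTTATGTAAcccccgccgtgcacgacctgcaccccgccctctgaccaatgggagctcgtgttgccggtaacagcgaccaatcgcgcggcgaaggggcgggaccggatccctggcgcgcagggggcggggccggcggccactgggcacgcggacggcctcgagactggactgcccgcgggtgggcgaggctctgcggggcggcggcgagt

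The E-box stood in 2349 of 32851 windows (7.15%) and the D-box in 308 (0.938%). Windows were found for 19 of the 21 clock genes. Here too the shares are of windows and the list counts are of genes with a match in any window. The E-box was in those of Bhlhe41, Ciart, Cry1, Per1 and Tef, and the D-box in that of Per3. None of the printed matches overlaps another.

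On the activating side, Arntl, the gene of BMAL1, was at 5.72 and 6.02 in fed knockout liver and at 4.60, 4.53 and 8.87 in fasted replicates 1, 2 and 3. Replicates 1 and 2 lay below the fed arrays and replicate 3 far above them (0.13, adjusted p = 0.96). Without fasted knockout replicate 3 Arntl was called lower (adjusted p = 0.0414), but replicates 1 and 2 were both below the array median, so the size of that difference is not known. Npas2, which can stand in for CLOCK, was at 5.46 and 5.11 against 3.88, 4.88 and 8.93, above the array median on replicate 3 only. Clock was at 9.82 and 9.51 against 9.03, 9.53 and 10.49. Replicate 3 was thus the highest array for each of the 3 activators. Cry1, a repressor that peaks late, was highest on replicate 3 as well, with 4.91 and 5.61 fed and 5.43, 5.73 and 6.74 fasted. The same held for the repressor gene Nfil3, at 8.20 and 8.20 fed and 7.91, 7.91 and 9.24 fasted.

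Several other clock genes were lowest on replicate 3. Dbp, a transcription factor of the clock's output, was at 9.88 and 10.02 fed and at 10.05, 9.80 and 6.00 fasted. Per3, a period gene, was at 8.84 and 9.24 against 8.82, 8.87 and 5.88. Ciart, a repressor of BMAL1 and CLOCK, was at 8.37 and 7.35 against 8.76, 8.98 and 5.90. Replicate 3 was lower than every other knockout array for these 3 genes. Replicates 1 and 2 were near the fed arrays for Dbp and Per3, and above both fed arrays for Ciart. Tef was at 8.66 and 8.86 against 8.43, 8.52 and 6.76, and the cell cycle kinase gene Wee1 at 8.45 and 8.77 against 9.09, 9.17 and 7.02. Nr1d1, the repressor REV-ERBα of Arntl, was below the fed arrays on all fasted arrays, at 9.53 and 9.70 against 8.55, 8.86 and 7.21 (-1.41, adjusted p = 0.115). Per1 did not follow this split, with 8.39 and 8.55 fed and 8.34, 8.89 and 8.63 fasted.

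The fasted knockout array nearest to the fasted wild type mean was replicate 3 for 13 of the 21 clock genes, replicate 1 for 5 and replicate 2 for 3. Over all genes tested the nearest array was replicate 1 for 21.8%, replicate 2 for 40.5% and replicate 3 for 37.6%. Fasted wild type replicates 1, 2 and 3 were at 9.29, 9.04 and 9.16 for Arntl, beside 8.87 on fasted knockout replicate 3. For Dbp they were at 6.07, 6.58 and 6.64, beside 6.00, and for Npas2 at 10.05, 8.78 and 9.61, beside 8.93. No source used here names the clock hour of collection, so its part in these values cannot be told apart from that of the fast.

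**Figure D4:**
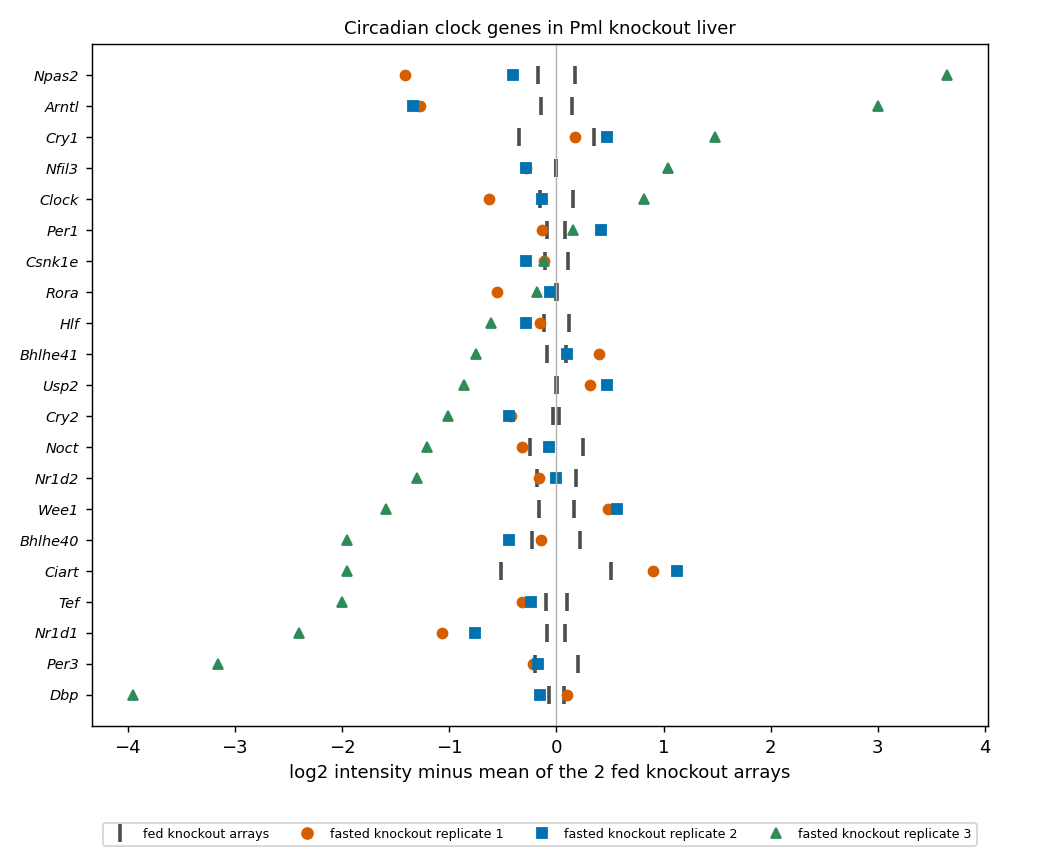
Rows are the 21 tested clock genes, and the horizontal axis gives log2 intensity minus the fed knockout mean for the 2 fed arrays (bars) and fasted replicates 1, 2 and 3 (symbols). Replicate 3 lies far to the right for Arntl and Npas2 and far to the left for Dbp and Per3, where replicates 1 and 2 lie closer to each other than to replicate 3.

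Replicate 3 also stood apart from the other fasted knockout arrays beyond the clock. Of the 423 genes with a range of at least 1 log2 unit over the fasted knockout arrays, it was the array apart for 230, replicate 1 for 133 and replicate 2 for 60. Such a range was found for 247 genes (1.77%) over the 3 fasted wild type arrays. Against the fed mean, a difference of at least 1 log2 unit was found for 190 genes higher and 270 lower on replicate 3, for 96 and 155 on replicate 1, and for 99 and 136 on replicate 2. The 2 fed arrays differed from each other by as much for 74 genes higher and 46 lower on replicate 1.

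Cdkn1a, the cell cycle inhibitor p21, was at 6.44 and 4.26 in the fed arrays and at 5.26, 6.27 and 10.84 in the fasted ones (2.11, adjusted p = 0.42). Ppp1r3c, a glycogen-targeting subunit of protein phosphatase 1, was at 8.62 and 8.86 against 7.66, 6.37 and 9.88. Dhrs9, a dehydrogenase gene, was at 5.81 and 5.82 against 3.93, 3.67 and 7.08. Fasted wild type replicates 1, 2 and 3 were at 11.30, 11.29 and 11.39 for Cdkn1a. They were at 9.86, 9.05 and 8.74 for Ppp1r3c and at 7.66, 7.72 and 8.40 for Dhrs9. In each of these 3 genes replicate 3 was the highest of the 5 knockout arrays. Thrsp, a lipogenic gene picked after its values were seen, was lowest there, at 10.54 and 10.85 fed and 10.75, 10.02 and 7.68 fasted. Cxcl1, a chemokine that attracts neutrophils, was highest on replicate 1, at 5.52 and 6.28 against 7.45, 5.03 and 3.83. Cpne5, C4a and Sult2a7, also among the 10 widest ranges, had 1 of 3 fasted values above the array median each, so most of their values are bounds.

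The remaining lists held few calls, where 0.811% of all genes tested rose and 0.868% fell. Heat shock genes had 0 of 15 called by limma (1 higher and 4 lower at an unadjusted p under 0.05; median -0.07), among them Hspa1b at 6.42 and 6.92 against 5.39, 5.79 and 5.32 (-1.17, adjusted p = 0.085). ATF4 targets had 0 of 15 called (3 higher and 2 lower at an unadjusted p under 0.05). NRF2 targets and antioxidant enzymes had 0 of 25 called (0 and 1), and oxidative phosphorylation 0 of 25 (0 and 0). PML nuclear body and SUMO genes had 0 of 19 called (4 and 1), with the desumoylating protease gene Senp1 at 6.96 and 6.79 against 7.26, 7.27 and 7.28 (0.39, adjusted p = 0.0854). Of 22 p53 targets 2 rose, Btg2 and the kinase gene Plk3 (1.14, adjusted p = 0.044). Of 24 autophagy and lysosome genes Tfeb, the transcription factor that drives them, was the only call: it rose at least 1.27-fold from below the array median (adjusted p = 0.0483, called in 0 of 10 omissions). Of 21 drug metabolism genes Cyp2b10 was the only call.

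Interferon-stimulated genes had 0 of 33 called by limma (3 higher and 2 lower at an unadjusted p under 0.05) and a median of 0.20, with 0.01, 0.09 and 0.49 by array. In wild type 17 of the 33 fell (13.2% of all genes), with a list median of -0.75. By the interaction test 4 of the 33 had a higher response in knockout (1.32% of all genes). Among these Gbp3, an interferon-induced GTPase, was at 7.61 and 7.92 fed and 8.28, 8.21 and 8.49 fasted in knockout (0.56, adjusted p = 0.208), against -1.10 in wild type (interaction 1.66, adjusted p = 0.0391). Cell cycle genes had 0 of 17 called by limma (2 higher and 0 lower at an unadjusted p under 0.05), with 6 above the fed arrays (18.3% of all genes) and 0 below. The replication licensing gene Mcm4 was at 5.76 and 5.97 against 6.92, 6.68 and 6.14 (0.71, adjusted p = 0.124), and at -1.48 in wild type (interaction 2.20, adjusted p = 0.0264).

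**Figure D5:**
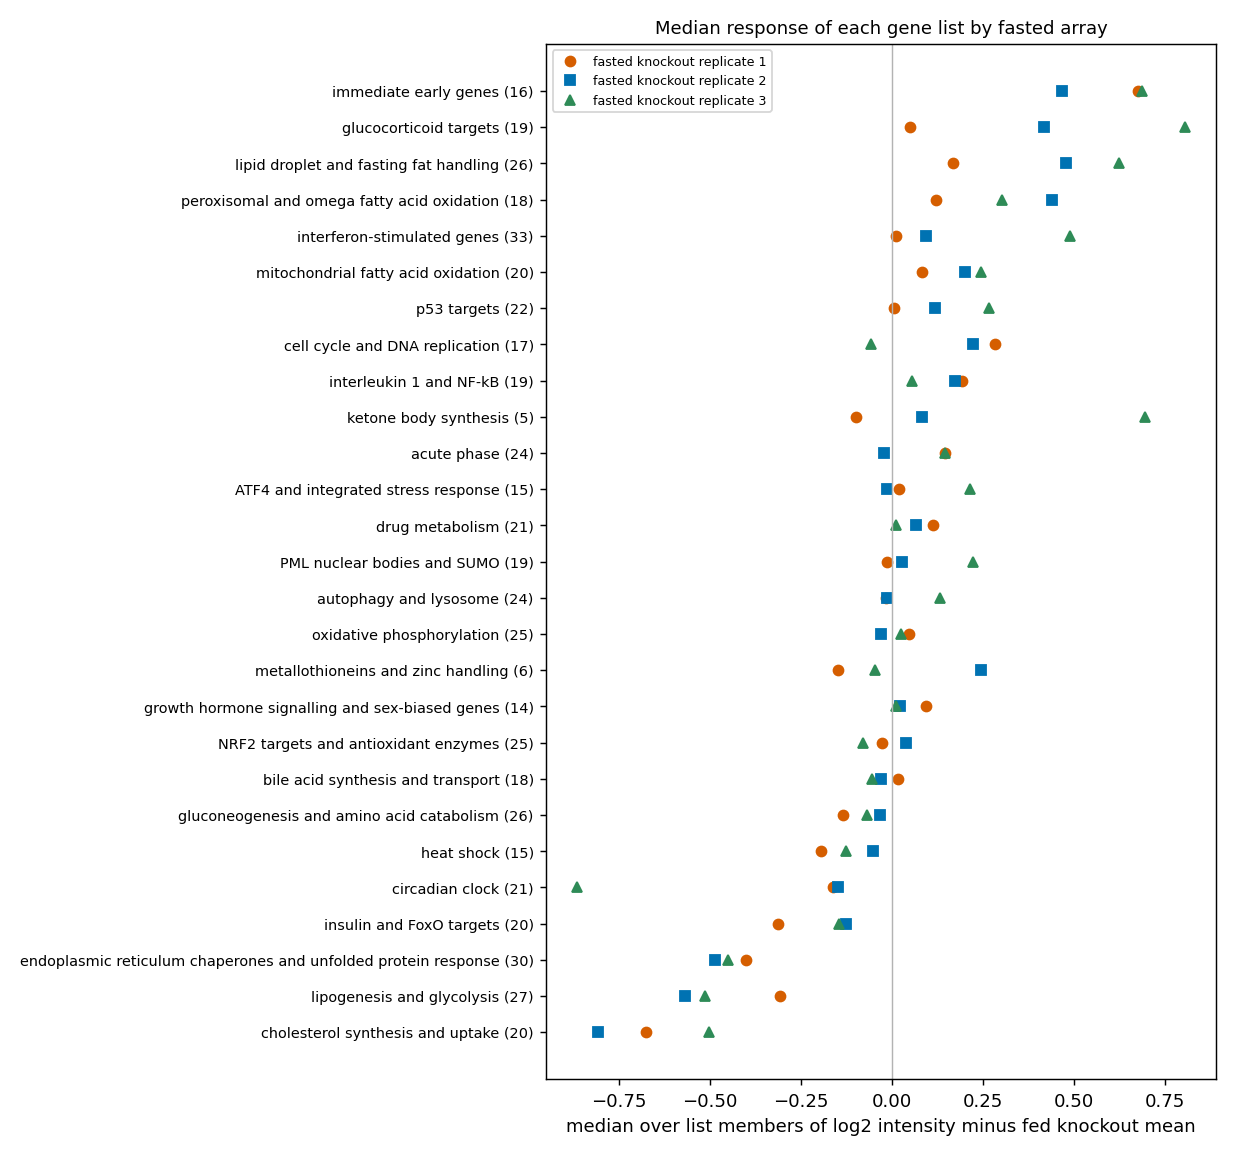
Rows are gene lists, and the horizontal axis gives the median over the tested genes of a list of log2 intensity minus the fed knockout mean, separately for fasted replicates 1, 2 and 3. The 3 arrays coincide for the endoplasmic reticulum list (-0.40, -0.49 and -0.45), while replicate 3 lies apart for the circadian clock list (-0.87) and replicate 1 for the lipid droplet list (0.17).

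The fasting response differed between the genotypes for 294 of 13942 genes (2.11%) by the interaction test, and 22 of these were among the 234 genes called in knockout. By its own test 151 of the 234 were also called in wild type and 83 were not, which by itself does not show a difference. Several of the largest differences lay in genes called in wild type and not in knockout. Ppp1r3g, a glycogen-targeting phosphatase subunit, was at 11.32 and 12.83 fed and 12.51, 12.87 and 11.27 fasted in knockout, with overlap (0.15), against 5.96 in wild type (interaction -5.82, adjusted p = 0.0221). Lgr5, a WNT co-receptor of hepatocytes around the central vein, was at 7.80 and 6.40 against 7.57, 7.41 and 6.90 (0.19), and at -3.20 in wild type (interaction 3.40, adjusted p = 0.0278). Cyp2g1, a cytochrome P450, had differences of 0.32 and -2.99 in knockout and wild type (interaction 3.31, adjusted p = 0.0264). The fed and fasted knockout arrays overlapped for Ppp1r3g, Lgr5 and Cyp2g1. Tacc2, a centrosomal protein gene, was at 7.39 and 7.21 fed and at 6.54, 6.70 and 6.77 fasted in knockout without a call (-0.63, adjusted p = 0.0794), against 2.01 in wild type (interaction -2.64, adjusted p = 0.00743). The interaction count was 13 and 2 without fed knockout replicates 1 and 2, and 83 and 120 without fed wild type replicates 1 and 2. For the 3 fasted knockout arrays it was 52 (replicate 1), 246 (replicate 2) and 360 (replicate 3). For the 3 fasted wild type arrays it was 60 (replicate 1), 40 (replicate 2) and 56 (replicate 3).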

How the data were processed

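The values deposited by the authors are linear, normalized intensities, 1 for each probe set and array. RMA and Affymetrix Expression Console stand in the submitters' processing notes, while their versions, the library files and the build of the genome are, for the sources used here, not given. On each array 228 to 489 values were below 0.1, unusual for RMA, so the exact summary step is unknown. The deposited intensities were put on the log2 scale and not normalized again. Of 41345 probe sets, the platform's annotation table gives 23521 a single symbol and 1814 several, and 16010 are unnamed here. Probe sets above the array median on at least 2 arrays were kept (14617), and the brightest stood for its gene (519 genes had more than 1). Related genes, such as Acot1 and Acot2 or Cyp2b10 and its family, may share probes.

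Group means of all 10 arrays were fitted in limma 3.58.1 (R 4.3.3; residual degrees of freedom 6, prior 3.63), tested on simulated data, with Benjamini-Hochberg adjustment over 13942 genes and calls at an adjusted p under 0.05. The contrasts were fasted minus fed in knockout, the same in wild type, and their difference, the interaction. A group with all its arrays at or below the array median gives only a bound: the fold of the other group over that median, written with "at least". A gene given as a bound may have passed the filter only through the groups where it was high. The number of arrays limits the precision. Members, gene lists, motifs and alternatives were chosen with earlier results of these data known. Named were Pml, the 15 higher and 15 lower called genes with the largest change, the 10 widest ranges over the fasted knockout arrays, the clock genes, list members that were called or had the 4 smallest p-values (in part), and the 5 called interaction genes with the largest difference in each direction; other named genes are marked as chosen after their values were seen, or, like Pck1 and G6pc, stand as textbook genes. Alternatives were centring, quantile normalization, a pseudocount of 1, no filter, a stricter filter (70th percentile), probe sets of a gene averaged, moderation with trend and robust, weighted arrays, a block for the replicate number, the knockout arrays alone and, in turn, each array left out. Replicate numbers did not pair the samples: same-numbered fed and fasted knockout arrays correlated at -0.05 and -0.03 in their deviations from the group means. Promoter windows came from RefSeq (GRCm38.p6), matched by symbol.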

Additional observations from a re-analysis of the deposited data

Results flagged for a closer look

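The fasting response of 17 named genes differed between knockout and wild type by limma's interaction test; each value is the knockout response minus the wild type response on the log2 scale, with its adjusted p. Smaller or opposite responses in knockout, for genes that rose in wild type, were found for Ppp1r3g (-5.82, adjusted p = 0.0221), Pdgfrl (-3.58, adjusted p = 0.0264), Igfbp1 (-3.25, adjusted p = 0.0278), Tacc2 (-2.64, adjusted p = 0.00743) and Acot2 (-2.52, adjusted p = 0.0426). The same held for Jun (-1.70, adjusted p = 0.0426), Fkbp5 (-1.64, adjusted p = 0.0426), Pex11a (-1.40, adjusted p = 0.0278), Cyp2b10 (-1.28, adjusted p = 0.0188), Pnpla2, the adipose triglyceride lipase gene (-1.13, adjusted p = 0.0391), and Bnip3, a mitophagy receptor gene (-0.76, adjusted p = 0.0426). Genes that fell in wild type and fell less or not at all by the test in knockout were Lgr5 (3.40, adjusted p = 0.0278), Cyp2g1 (3.31, adjusted p = 0.0264), Mvk (2.21, adjusted p = 0.017), Mcm4 (2.20, adjusted p = 0.0264) and Gbp3 (1.66, adjusted p = 0.0391). Cyp7a1 rose in knockout and fell in wild type (3.57, adjusted p = 0.017), from fed means of 10.13 and 11.56. Each of these values also holds any difference between the genotypes in fed liver. No explanation of these differences was tested.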

How the results depend on the processing

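The 234 calls of the fast in knockout stayed between 177 and 315 with centring, quantile normalization, a pseudocount of 1, the mean of probe sets and array weights. They became 10 unfiltered, 452 under the stricter filter, 504 when moderation used trend and robust, and 16 with the knockout arrays alone. With an array left out they ranged from 1 to 170. The 294 interaction calls stayed between 240 and 338 in the first set of settings. They became 4 unfiltered, 501 under the stricter filter and 520 when moderation used trend and robust, and ranged from 2 to 360 with an array left out. An arm left with 1 fed array was fitted with that sample assumed to vary like the other groups. The causes were not tested. With the replicate number as a block, limma called 0 genes for the fast in knockout (2310 at an unadjusted p under 0.05) and 137 for the interaction. Whether the replicate numbers pair the samples cannot be settled with 2 fed arrays in a group. None of the 234 genes changed sign under any of these settings. With an array left out a change of sign was not possible, since their fed and fasted arrays do not overlap. Signal over background limits dim genes: of the genes named as bounds, the true fold is not known.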

Other observations

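Genes of the nucleolus and of ribosome assembly, grouped by symbol stem after their values had been seen and therefore given without a test, were often higher in fasted knockout liver. Of 46 tested, 10 rose (background for higher calls 0.811%) and none fell. On every fasted array 27 lay above the fed arrays and 3 below, against 18.3% and 18.5% of all genes. The called genes were Nop58 (1.31), Nop56 (1.15), Nol8 (1.07), Gnl3 (0.95), Nolc1 (0.93), Nol9 (0.82), Utp14a (0.70), Nop14 (0.62), Imp3 (0.61) and Gnl2 (0.59), as log2 differences. Nop56 and Nop58 are core proteins of the small nucleolar particles that methylate ribosomal RNA, and Gnl3 encodes nucleostemin. The median of the 46 was 0.30, with 0.22, 0.22 and 0.42 in fasted replicates 1, 2 and 3, and between 0.24 and 0.33 over the settings tried. In wild type the median was 0.15, with 7 higher and 3 lower (8.23% and 13.2% of all genes). Limma's interaction test called 0 of the 46 (8 at an unadjusted p under 0.05). None of the 46 was called by limma with the knockout arrays alone, without fed knockout replicate 2 or without fasted knockout replicate 3 (19, 18 and 20 at an unadjusted p under 0.05).

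Host genes of small nucleolar RNAs, grouped in the same way, held 3 higher calls among 14 and none lower (background for higher calls 0.811%). The calls were Snhg1 (1.06), Zfas1 (0.98) and Dancr (0.81), and the median was 0.31 against 0.28 in wild type. None of the 14 was called by limma under those same 3 settings (5, 7 and 6 at an unadjusted p under 0.05). These medians rest on the same fed arrays as all other values given here.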
